A study of Homo sapiens with 24 samples.

Results

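Homologous recombination copies the sister chromatid to mend a broken DNA double helix, and the Fanconi pathway unhooks crosslinks between the strands and hands the resulting break to homologous recombination. The expression of 39 genes of both pathways and of their checkpoint kinases was analysed in A549 and H1975, a pair of established human lung adenocarcinoma lines, after treatment with the anti-fibrotic drug Pirfenidone. The genes were chosen by name, and each was read from its brightest probe on a one-colour Agilent array. All 39 were found among the 24655 gene names of the array, and all 39 were measured well above background on every one of the 24 arrays. The 8 groups were A549 in PBS for 6 h, A549 in Pirfenidone for 6 h, A549 in PBS for 24 h and A549 in Pirfenidone for 24 h, and the same 4 groups of H1975, with 3 arrays in each. Pirfenidone was given at 0.75 mg/ml, the control cells received the matching volume of PBS, and the labels named no other agent and no engineered allele in any group. Each group was thus a single line grown in culture. The labels did not state whether replicates were separate cultures, so p-values measure the spread between these samples, which may be technical.

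Values are log2 signals relative to the 75th percentile of the same array, so that 0 is the 75th percentile and a difference of 1 is a fold change of 2. A difference passed the test at an adjusted p of 0.05 or less (limma over all 23827 probes tested, Benjamini-Hochberg), and "rose" or "fell" is used only of genes that passed. The arrays fell into 4 runs by the date in their file names, 3 runs for each line, and into 7 slides. Each combination of treatment and time always lay at the same place on its slide, so drug and place cannot be told apart. The number of arrays limits the precision. EPCAM, KRT8, KRT18, KRT19 and CDH1, markers of epithelial cells, could be detected above background on each of the 12 arrays of both lines. The lung lineage factor NKX2-1 was well above background on 0 of 12 A549 arrays and on 12 of 12 H1975 arrays, while NAPSA, another lung marker, was on all 12 of each line. The fibroblast markers COL3A1 and DCN were on 0 arrays, while COL1A1 was on all 12 arrays of each line, and the leukocyte marker PTPRC on 12 A549 and 11 H1975 arrays. The A549 pair of run 1 at 24 h (replicate 3 of PBS and of Pirfenidone) stood apart from the other pairs, and results that rest on it are given with and without it.

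Both pathways work mainly in cells that are copying or have copied their DNA, since the sister chromatid is the template, and many of their genes are known to be transcribed most in S and G2 phase. BRCA1 with BARD1 promotes the trimming of the broken ends and, through PALB2, brings BRCA2 to the break, where the search for the template begins. In the Fanconi pathway a core complex attaches ubiquitin to the pair FANCD2 and FANCI, which then clamps onto the damaged DNA. In bulk RNA, fewer cells that express a gene and less RNA in each cell cannot be told apart.

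In H1975 cells treated with Pirfenidone for 24 h, 15 of the 39 genes fell and 0 rose. By the same rule 3.35% of all probes fell and 2.91% rose. The 15 were BRCA1, BARD1, RAD54L, RAD54B, EXO1, BLM, POLQ, FANCA, FANCB, FANCM, UBE2T, FANCD2, FANCI, ATRIP and H2AFX, and all their differences lay between -0.69 and -1.15. Of these, 5 also fell with a fold change of at least 2, namely BRCA1, BLM, FANCD2, FANCI and H2AFX, where 1% of all probes did. The difference was below 0 for 33 of the 39 genes, and the median difference was -0.63 against 0.02 over all probes. All 3 Pirfenidone arrays lay below all 3 PBS arrays for 24 of the 39 genes, against 15.6% of all probes, and above them for 3 genes, against 16.3% of all probes. After 6 h in either line, and after 24 h in A549, 0 of the 39 genes passed. Of all probes, 0.34% (A549) and 1.41% (H1975) passed after the shorter treatment, and 0.0126% in A549 after the longer one. With so few probes passing, 0 of 39 does not set these genes apart from the array.

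**Figure D1:**
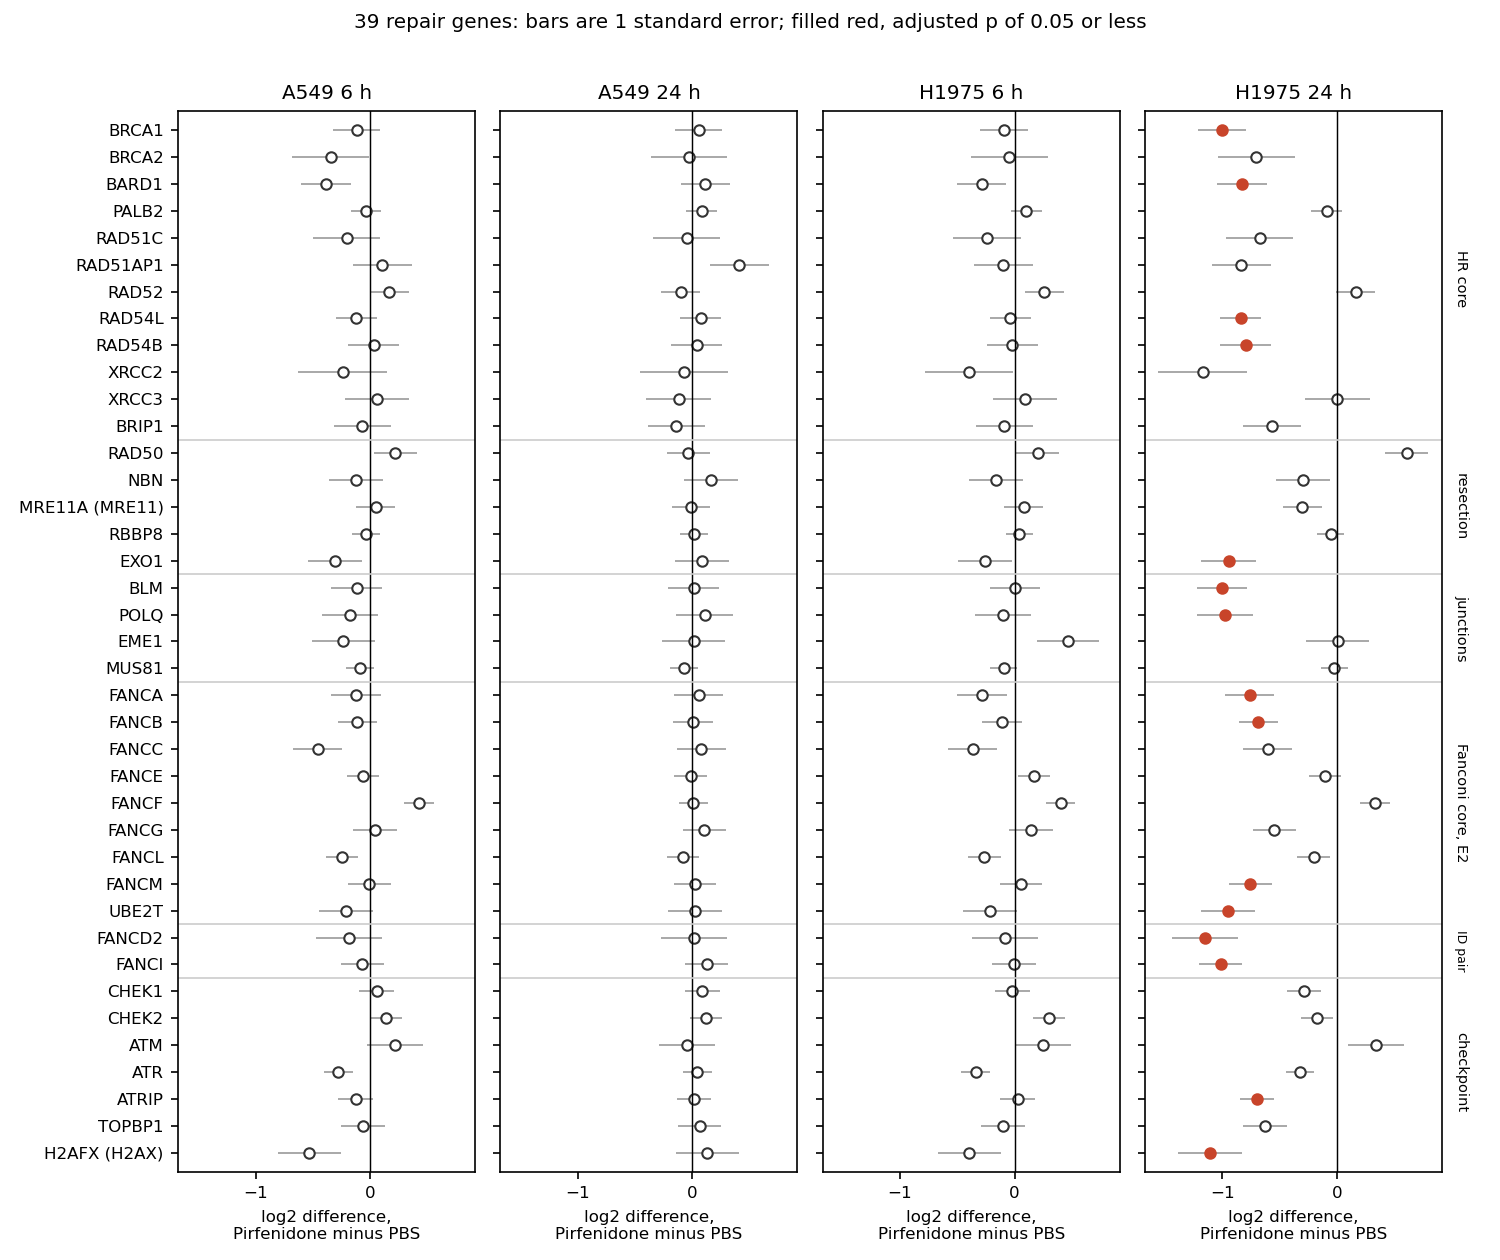
Log2 differences of Pirfenidone minus PBS for the 39 genes, ordered by role, in the 4 comparisons of line and time. Circles are differences between means of 3 arrays, bars are 1 standard error, and red circles passed at an adjusted p of 0.05 or less: 15 genes, all below 0, in H1975 at 24 h and 0 elsewhere.

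The promoters of 4 of the 5 genes that fell by a fold change of at least 2 are shown because these genes moved together. The windows are from RefSeq (GRCh38.p14), run from 250 bases before to 50 bases after the start of the gene, and are written 5′ to 3′ on the strand of the gene. H2AX is the current name of H2AFX. Capitals mark matches on either strand to letters of E2F sites (TTTCGCGC, TTTGGCGC, TTTCCCGC or TTTGCCGC), of the CHR element of cell cycle genes (TTTGAA or TTCGAA) and of the CCAAT box (CCAAT). None of these words is contained in another.
BRCA1 at chr17:43125315-43125614 on the minus strand: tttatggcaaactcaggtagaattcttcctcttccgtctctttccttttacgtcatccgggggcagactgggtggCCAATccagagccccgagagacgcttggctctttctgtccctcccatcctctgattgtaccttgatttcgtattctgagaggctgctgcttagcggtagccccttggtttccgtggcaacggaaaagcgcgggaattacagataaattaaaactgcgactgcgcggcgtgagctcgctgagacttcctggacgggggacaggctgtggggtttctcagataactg
BLM at chr15:90717096-90717395 on the plus strand: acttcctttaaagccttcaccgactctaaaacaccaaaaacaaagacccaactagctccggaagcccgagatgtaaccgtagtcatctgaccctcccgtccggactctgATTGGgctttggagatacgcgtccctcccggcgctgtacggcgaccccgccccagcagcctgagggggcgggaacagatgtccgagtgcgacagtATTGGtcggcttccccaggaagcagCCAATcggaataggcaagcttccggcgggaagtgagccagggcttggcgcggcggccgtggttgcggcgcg
FANCD2 at chr3:10026187-10026486 on the plus strand: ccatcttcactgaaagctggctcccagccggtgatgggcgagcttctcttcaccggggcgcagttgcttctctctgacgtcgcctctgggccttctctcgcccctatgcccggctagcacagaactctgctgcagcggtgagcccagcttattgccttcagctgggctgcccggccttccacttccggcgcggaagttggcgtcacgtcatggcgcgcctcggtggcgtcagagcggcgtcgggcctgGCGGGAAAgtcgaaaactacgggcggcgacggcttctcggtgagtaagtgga
H2AX at chr11:119095416-119095715 on the minus strand: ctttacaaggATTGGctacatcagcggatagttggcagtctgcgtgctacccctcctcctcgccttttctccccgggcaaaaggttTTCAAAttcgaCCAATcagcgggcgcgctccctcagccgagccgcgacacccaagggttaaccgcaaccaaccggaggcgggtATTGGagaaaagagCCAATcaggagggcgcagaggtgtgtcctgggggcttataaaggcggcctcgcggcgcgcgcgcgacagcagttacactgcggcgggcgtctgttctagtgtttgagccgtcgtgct
The FANCD2 window held an E2F match, GCGGGAAA, that began 2 bases before the start. The BLM window held 3 CCAAT matches, the BRCA1 window 1, and the H2AX window 4 together with 1 CHR match. A second RefSeq window of BRCA1 held none. Windows were given for 36 of the 39 genes, 47 windows in all. An E2F match was found in 3 of 17 windows of the genes that fell and in 3 of 30 windows of the other genes, against 3.31% of all 35116 windows. A CCAAT match was found in 10 of the 17 and in 13 of the 30, against 34.6% of all windows. A CHR match was found in 3 of the 17 and in 3 of the 30, against 16.4% of all windows. A match describes letters only, and the counts were not tested.

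Among the 12 genes of the recombination core and its mediators, 4 fell in H1975 at 24 h. BRCA1, read by a probe at chr17:41196422-41196481 of hg19, measured -0.29, -0.22 and 0.11 on the PBS arrays and -1.11, -0.89 and -1.43 on the Pirfenidone arrays. The groups did not overlap, and BRCA1 fell by 1.003 (standard error 0.21, adjusted p = 0.0106, limma), to 49.9% of the PBS level. Its partner BARD1 measured 0.17, 0.01 and 0.18 in PBS and -0.48, -0.47 and -1.17 in Pirfenidone. BARD1 fell by 0.83 (standard error 0.22, adjusted p = 0.0296, limma), with replicate 3 of Pirfenidone the lowest. RAD54L and RAD54B are motor proteins that work on DNA during strand pairing. RAD54L measured 1.27, 1.29 and 1.47 in PBS and 0.73, 0.65 and 0.14 in Pirfenidone, and it fell by 0.84 (adjusted p = 0.0124, limma). RAD54B measured -0.78, -0.95 and -0.33 in PBS and -1.45, -1.43 and -1.56 in Pirfenidone, and it fell by 0.79 (adjusted p = 0.0400, limma). Neither gene's groups overlapped.

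The other 8 core genes did not pass. BRCA2, the mediator that acts on the trimmed single strands, measured -5.16, -5.00 and -4.31 in PBS and -5.61, -5.47 and -5.50 in Pirfenidone. Its groups did not overlap, but the difference of -0.70 had an adjusted p of 0.227 (limma). The fit took the spread of each gene from all 8 groups together. For BRCA2 the SD was largest in A549 at 24 h, at 0.64 in PBS and 0.57 in Pirfenidone. In H1975 at 24 h the SD was 0.45 in PBS and 0.08 in Pirfenidone. XRCC2, which acts in a complex that aids strand pairing, had the lowest difference of the 39, -1.17, with a standard error of 0.39 and an adjusted p of 0.0762 (limma). It measured -0.34, -0.90 and -0.13 in PBS and -1.32, -1.84 and -1.72 in Pirfenidone, without overlap. RAD51AP1, an accessory factor of strand pairing, differed by -0.83 (adjusted p = 0.0585, limma), RAD51C by -0.67 and the helicase BRIP1 by -0.57. PALB2, the bridge between BRCA1 and BRCA2, differed by -0.09. The differences of the annealing factor RAD52 and of XRCC3, a partner of RAD51C, were 0.17 and 0.01. The XRCC3 probe read here was the only one of the 39 whose accession matched no current RefSeq transcript, and the other XRCC3 probe fell by 0.70 (adjusted p = 0.0455, limma).

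Of the 5 genes of end trimming and the MRN complex, the exonuclease EXO1 alone passed. EXO1 measured 1.05, 1.08 and 0.77 in PBS and 0.28, 0.34 and -0.56 in Pirfenidone, and it fell by 0.95 (adjusted p = 0.0253, limma). The MRN complex senses and holds the broken ends, and none of its 3 subunits passed: MRE11A (MRE11 in newer names) differed by -0.30, NBN by -0.29 and RAD50 by 0.61. RAD50 had the highest difference of the 39 genes (adjusted p = 0.0600, limma). It measured -0.19, -0.14 and 0.19 in PBS and 0.29, 0.37 and 1.03 in Pirfenidone, so that all treated arrays lay above all controls. RBBP8, which starts the trimming, differed by -0.05.

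Among the 4 genes that process junctions or join ends by an alternative route, BLM and POLQ fell. The helicase BLM, read at chr15:91358495-91358554 of hg19, measured 0.18, 0.02 and 0.06 in PBS and -0.65, -0.71 and -1.40 in Pirfenidone. It fell by 1.003 (standard error 0.22, adjusted p = 0.0135, limma). POLQ, the polymerase of microhomology-mediated end joining, measured -0.06, -0.06 and -0.07 in PBS and -0.998, -0.83 and -1.28 in Pirfenidone. The PBS arrays were nearly equal, and POLQ fell by 0.97 (adjusted p = 0.0259, limma). MUS81 and EME1, which form a nuclease that cuts branched DNA, differed by -0.02 and 0.01.

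In the Fanconi core complex with its ubiquitin-conjugating enzyme UBE2T, 4 of 9 genes fell. UBE2T measured 2.48, 2.38 and 2.77 in PBS and 1.75, 1.68 and 1.35 in Pirfenidone, and it fell by 0.95 (adjusted p = 0.0232, limma). FANCM, the motor that brings the complex to stalled forks, measured 0.79, 0.72 and 0.80 in PBS and 0.25, 0.15 and -0.34 in Pirfenidone. FANCM fell by 0.75 (adjusted p = 0.0225, limma). FANCB, a part of the catalytic module, measured -2.49, -2.73 and -2.82 in PBS and -3.34, -3.15 and -3.60 in Pirfenidone, and it fell by 0.69 (adjusted p = 0.0250, limma). FANCA measured -0.85, -1.32 and -0.89 in PBS and -1.46, -1.72 and -2.17 in Pirfenidone, and it fell by 0.76 (adjusted p = 0.0437, limma). In all 4 genes the groups did not overlap. Of the other core genes, FANCC differed by -0.60, FANCG by -0.54, the ubiquitin ligase FANCL by -0.20 and FANCE by -0.10, and FANCF lay on the other side of 0 at 0.34. None of these 5 passed.

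Both genes of the pair that the core complex modifies fell. FANCD2, read at chr3:10143006-10143065 of hg19, measured -0.92, -1.23 and -1.13 in PBS and -1.91, -2.16 and -2.66 in Pirfenidone. It fell by 1.15 (standard error 0.29, adjusted p = 0.0253, limma), to 45.1% of the PBS level, which was the largest decrease among the genes that passed. FANCI, read at chr15:89858528-89858587 of hg19, measured 1.61, 1.33 and 1.59 in PBS and 0.65, 0.60 and 0.25 in Pirfenidone. FANCI fell by 1.01 (standard error 0.19) and had the lowest adjusted p of the 39, 0.00593 (limma).

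Of the 7 checkpoint genes, 2 fell. H2AFX encodes the histone variant that is phosphorylated around breaks. Read at chr11:118964591-118964650 of hg19, it measured 4.15, 4.26 and 4.11 in PBS and 3.36, 3.43 and 2.41 in Pirfenidone, and it fell by 1.11 (standard error 0.28, adjusted p = 0.0251, limma). Replicate 3 of Pirfenidone lay well below the other two. ATRIP, the partner of the kinase ATR, measured -1.22, -1.23 and -1.09 in PBS and -1.80, -1.74 and -2.08 in Pirfenidone, and it fell by 0.70 (adjusted p = 0.0129, limma). ATR itself differed by -0.32 and its activator TOPBP1 by -0.63 (adjusted p = 0.0561, limma). The effector kinase CHEK1 measured 0.75, 1.06 and 0.82 in PBS and 0.77, 0.73 and 0.27 in Pirfenidone, with overlap, a difference of -0.29 and an adjusted p of 0.286 (limma). CHEK2 differed by -0.17. ATM, the kinase activated by double-strand breaks, measured -1.72, -1.79 and -2.32 in PBS and -1.43, -1.66 and -1.72 in Pirfenidone, a difference of 0.34 with an adjusted p of 0.464 (limma).

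**Figure D2:**
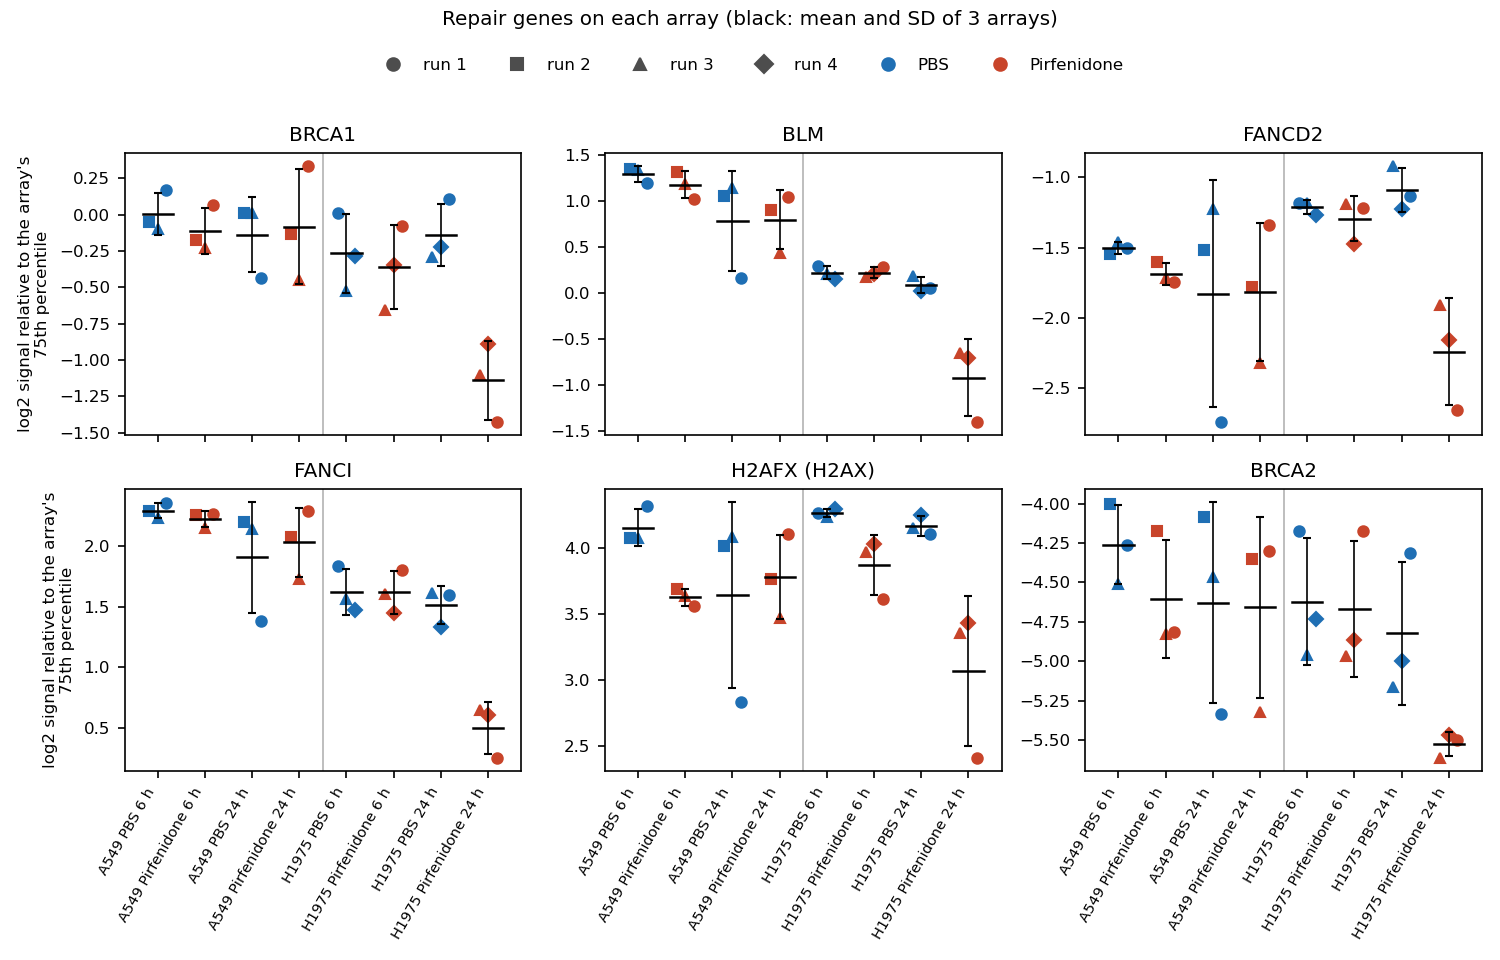
Log2 signals of 6 genes relative to the 75th percentile of each array, for the 3 arrays of each of the 8 groups. Colour gives the treatment, the symbol gives the run, and black bars are the mean and SD. The Pirfenidone arrays of H1975 at 24 h lie below all other H1975 arrays for BRCA1, BLM, FANCD2, FANCI and H2AFX, and the run 1 PBS array of A549 at 24 h is the lowest of the A549 PBS arrays for all 6 genes.

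The count in H1975 at 24 h rested on replicate 3 of Pirfenidone, the array of run 1. Without it, 0 of the 39 genes passed, while 34 of 39 differences were below 0 with a median of -0.57. The share of all probes that fell shrank as well, from 3.35% to 0.264%. Without PBS replicate 1 or PBS replicate 3, 4 genes passed in each case, and without PBS replicate 2, 8 genes passed, where 0.932%, 1.05% and 1.51% of all probes fell without PBS replicates 1, 3 and 2. All 15 genes stayed below 0 whichever array was left out. The PBS array of run 3 lay on another slide than its Pirfenidone partner. With the run as a block within the line, 23 genes fell and RAD50 rose by 0.61 (adjusted p = 0.000279, limma), where 10.1% of all probes fell and 11.7% rose. With the slide as a block, 14 genes fell, 10 of them among the 15, and RAD50 rose, where 5.1% of all probes fell and 5.8% rose. The PBS array of run 3 was alone on its slide, so the slide block took it out of the comparison. Within runs, the median difference of the 39 genes was -0.85 in run 1, -0.53 in run 3 and -0.44 in run 4, with 32, 33 and 33 genes below 0. The 15 genes that fell were lower in Pirfenidone in every run. They were chosen by their fall on these same arrays, so their sign in each run, or with 1 array left out, is no separate support.

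Genes of cell division moved with this result. Of 15 markers of proliferation, such as MKI67, TOP2A, CDK1 and PCNA, 15 fell in H1975 at 24 h, with a median difference of -1.09. Of these, 8 fell with a fold change of at least 2. By the same rules 3.35% of all probes fell, and 1% with that fold change. On the level scale, the mean of the 15 markers lay between 2.34 and 2.41 on the PBS arrays and between 0.86 and 1.55 on the Pirfenidone arrays. Replicate 3 of Pirfenidone was the lowest, at 0.86. The mean level of the 39 repair genes lay between 0.02 and 0.12 in PBS and between -0.61 and -0.31 in Pirfenidone. The part of proliferation in the fall of the repair genes was not tested. The genes of classical end joining, which needs no template and works throughout the cell cycle, had a median difference of -0.20. Of the 8 tested, 1 fell, XRCC5 (by 0.90, adjusted p = 0.0480, limma), which was named after its value was seen. XRCC5 measured 2.40, 2.67 and 2.58 in PBS and 2.07, 2.25 and 0.64 in Pirfenidone, and without replicate 3 of Pirfenidone the difference was -0.39 (adjusted p = 0.155, limma).

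A wider list of 57 other repair genes had 55 measured, with a median difference of -0.20 in H1975 at 24 h, where 7 fell and 2 rose. By the same rule 3.35% of all probes fell and 2.91% rose. CLSPN, the adaptor that ATR needs to activate CHEK1, was the only gene of this list to fall with a fold change of at least 2 (by 1.32, adjusted p = 0.0148, limma). Without replicate 3 of Pirfenidone, CLSPN differed by -1.06 (adjusted p = 0.111, limma), and without PBS replicate 3 by -1.26 (adjusted p = 0.0565, limma). The 2 that rose were ZSWIM7, by 0.97, and FAM175A, by 0.72, both named after their values were seen. ZSWIM7 started from a low level in H1975. In PBS at 24 h it measured -2.51, -2.66 and -2.67 there, and 1.63, 1.64 and 1.80 in A549. In A549, 0 of the 55 genes passed in Pirfenidone at either time. ZSWIM7 passed whichever array of the comparison was left out, while FAM175A missed without replicate 3 of Pirfenidone (0.58), PBS replicate 1 (0.68) or PBS replicate 2 (0.68). ZSWIM7 is part of a complex that promotes homologous recombination and FAM175A is a scaffold of the BRCA1-A complex. In H1975 at 6 h, 1 of the 55 passed, where 1.41% of all probes did. The gene was again ZSWIM7, which rose by 0.86 (adjusted p = 0.0176, limma). It missed there without PBS replicate 1 (0.64), Pirfenidone replicate 1 (0.83) or Pirfenidone replicate 2 (0.78).

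More than 1 probe was present for 12 of the 39 genes, with these values in H1975 at 24 h. The 3 FANCA probes fell by 0.76, 1.14 and 1.03. The 3 FANCD2 probes differed by -1.15, -1.01 and -1.20, of which the second missed the threshold (adjusted p = 0.0853, limma). The ATRIP probes fell by 0.70 and 0.87. The RAD54B probes differed by -0.79 and -0.76, of which the second missed (adjusted p = 0.0541, limma). The XRCC3 probes differed in their call, as given above. The probes of FANCC (-0.60 and 0.10), of RAD52 (0.17 and -0.28) and of ATM (0.34, 0.04 and -0.13) had opposite signs, and none of these passed. The probes of FANCF, FANCL, CHEK2 and ATR had the same sign within each gene, and none of them passed.

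After 6 h the 39 genes had not passed in either line, where 0.34% of all probes passed in A549 and 1.41% in H1975. When both A549 run 1 arrays at 24 h were left out of the fit, 1 gene rose in each line. The shares of all probes that passed were then 0.734% in A549 and 2.2% in H1975. With the run or the slide as a block, 0 passed in A549, and 1 rose and 1 fell in H1975. There 6.83% of all probes passed with the run block and 6.14% with the slide block. With all 24 arrays and no block, 3 genes in each line had an unadjusted p under 0.05 (limma), against 6.01% of all probes in A549 and 11% in H1975. FANCF was the first of them in both, at 0.43 in A549 (adjusted p = 0.299, limma) and 0.40 in H1975 (adjusted p = 0.165, limma), and ATR was the second, at -0.28 and -0.34. The other FANCF probe differed by only 0.06 in A549 and 0.15 in H1975, and the other ATR probe by -0.17 and -0.35. The median difference of the 39 was -0.11 in A549, with a range from -0.53 to 0.43. In H1975 the median was -0.05, with a range from -0.40 to 0.47. H2AFX had the lowest difference in A549 at 6 h: it measured 4.08, 4.08 and 4.32 in PBS and 3.69, 3.64 and 3.56 in Pirfenidone, without overlap.

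In A549 at 24 h, 0 of the 39 genes passed, with 0.0126% of all probes passing and 0 of the 39 at an unadjusted p under 0.05 (limma). The 3 runs differed in direction. In runs 2 and 3 the genes were mostly lower in Pirfenidone, with 35 and 32 of 39 below 0 and medians of -0.15 and -0.41. In run 1 only 6 of 39 were below 0 and the median was 0.71. The 15 genes that fell in H1975 were all lower in runs 2 and 3 and all higher in run 1. FANCD2 shows the pattern: its PBS arrays measured -1.51, -1.22 and -2.74 and its Pirfenidone arrays -1.78, -2.32 and -1.34, with run 1 last in each. BRCA1 measured 0.01, 0.01 and -0.44 in PBS and -0.13, -0.45 and 0.33 in Pirfenidone. H2AFX measured 4.02, 4.09 and 2.84 in PBS and 3.77, 3.47 and 4.11 in Pirfenidone.

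In each of these genes the PBS array of run 1 was the lowest of the group and its Pirfenidone array the highest. The proliferation markers moved the same way, with a median of 1.13 in run 1, -0.17 in run 2 and -0.58 in run 3. Without both arrays of run 1, 32 of the 39 genes were below 0 with a median of -0.26, and 0 passed. Over all 3 runs the median was 0.02.

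**Figure D3:**
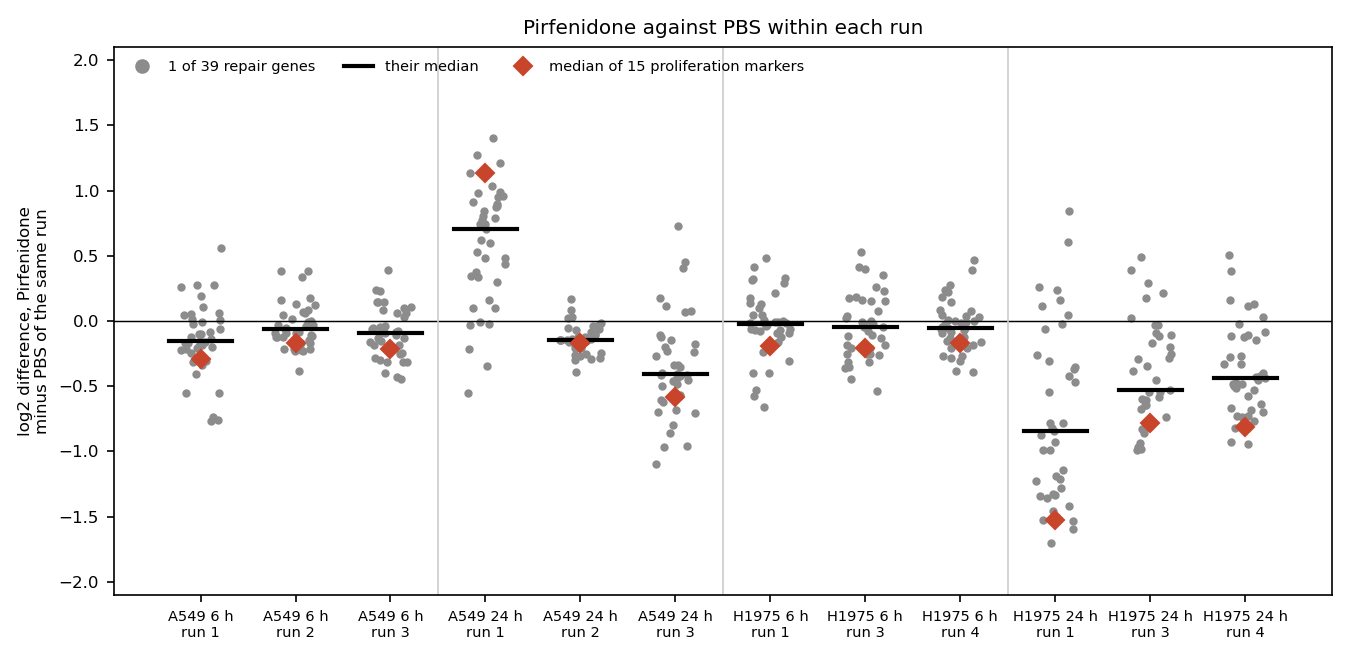
Log2 differences of Pirfenidone minus PBS within each run, for the 39 repair genes (grey points, with their median as a black line) and the median of 15 proliferation markers (red diamonds). The 3 pairs of H1975 at 24 h have medians of -0.85, -0.53 and -0.44, and the pair of A549 at 24 h in run 1 lies at 0.71, opposite to the other pairs of that group.

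The response to Pirfenidone was compared between the lines by an interaction term. At 24 h, 0 of the 39 genes passed, where 0.239% of all probes did. The median difference in response (H1975 minus A549) was -0.67, 33 of 39 genes were below 0, and 21 had an unadjusted p under 0.05 (limma), against 12.2% of all probes in either direction. FANCI came closest, at -1.14 with an adjusted p of 0.0883 (limma). With the run as a block, 4 genes passed below 0, namely BRCA1 (-1.06), RAD51AP1 (-1.24), FANCI (-1.14) and POLQ (-1.08), and RAD50 passed above 0 (0.65), where 1.47% of all probes passed below 0 and 3.33% above. When the run 1 pair of A549 was left out, the median shrank to -0.33 and 0 genes passed (0.0713% of all probes). At 6 h, 0 of the 39 passed, with 0.0378% of all probes passing, and 0 of the 39 had an unadjusted p under 0.05 (limma). A fall in H1975 and none in A549 was thus not shown to be a difference between the lines.

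The lines differed in the level of these genes in PBS. No slide held arrays of both lines, so line and slide cannot be told apart. In PBS at 6 h, 12 of the 39 genes were higher in H1975 than in A549 and 8 were lower, where 30.7% of all probes were higher and 27.9% lower. At 24 h 14 were higher and 5 lower, against 32% and 27.2% of all probes. The repair genes thus differed between the lines about as often as the array did. With a fold change of at least 2, 5 genes passed at each time, fewer than the 32.4% of all probes at 6 h and the 32.9% at 24 h. Passing at both times in the same direction, 11 genes were higher and 5 lower. The share of all probes that did so was not counted.

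BRIP1, the BRCA1-associated helicase, had the largest difference, 1.81 at 6 h (adjusted p = 4.15e-06, limma) and 1.41 at 24 h. At 6 h it measured -3.17, -3.08 and -2.77 in A549 and -1.42, -1.08 and -1.08 in H1975, and at 24 h -3.00, -3.28 and -3.37 against -1.81, -1.55 and -2.05. No H1975 array reached down to the A549 arrays at either time. ATRIP was higher in H1975 by 1.27 at 6 h and 1.37 at 24 h (adjusted p = 2.22e-07, limma). Its PBS arrays at 24 h measured -2.52, -2.35 and -2.78 in A549 and -1.22, -1.23 and -1.09 in H1975. FANCE, which links the core complex to FANCD2, was higher by 1.02 and 1.104, at 1.11, 1.17 and 1.43 in A549 and 2.18, 2.26 and 2.31 in H1975 at 6 h. In the other direction, FANCL was lower by 1.26 and 1.06, at 2.05, 1.98 and 1.70 in A549 and 0.66, 0.58 and 0.73 in H1975 at 6 h. The groups of all 4 genes were separate at both times. RAD50 was lower in H1975 by 0.97 and 1.07, and BLM by 1.07 and 0.70.

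The checkpoint genes lay to one side. CHEK1, CHEK2, ATM, ATR, ATRIP and TOPBP1, 6 of the 7, were higher in H1975 at both times, while H2AFX did not pass. Of all probes, 30.7% were higher at 6 h and 32% at 24 h. Each of these genes was read here from its brightest probe. When the run 1 pair of A549 at 24 h was left out, 12 of the 39 genes were higher in H1975 and 8 lower at that time. With all arrays kept, 32% of all probes were higher there and 27.2% lower. Time in culture made no difference that passed: between 6 h and 24 h in PBS, 0 of the 39 genes passed in A549 (0.134% of all probes, and at an unadjusted p under 0.05 in limma 2 genes and 8.49% of all probes) and 0 in H1975 (0.663% of all probes, and at an unadjusted p under 0.05 in limma 1 gene and 10.6% of all probes). The median difference was -0.21 in A549, or -0.02 without the run 1 arrays, and -0.09 in H1975.

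**Figure D4:**
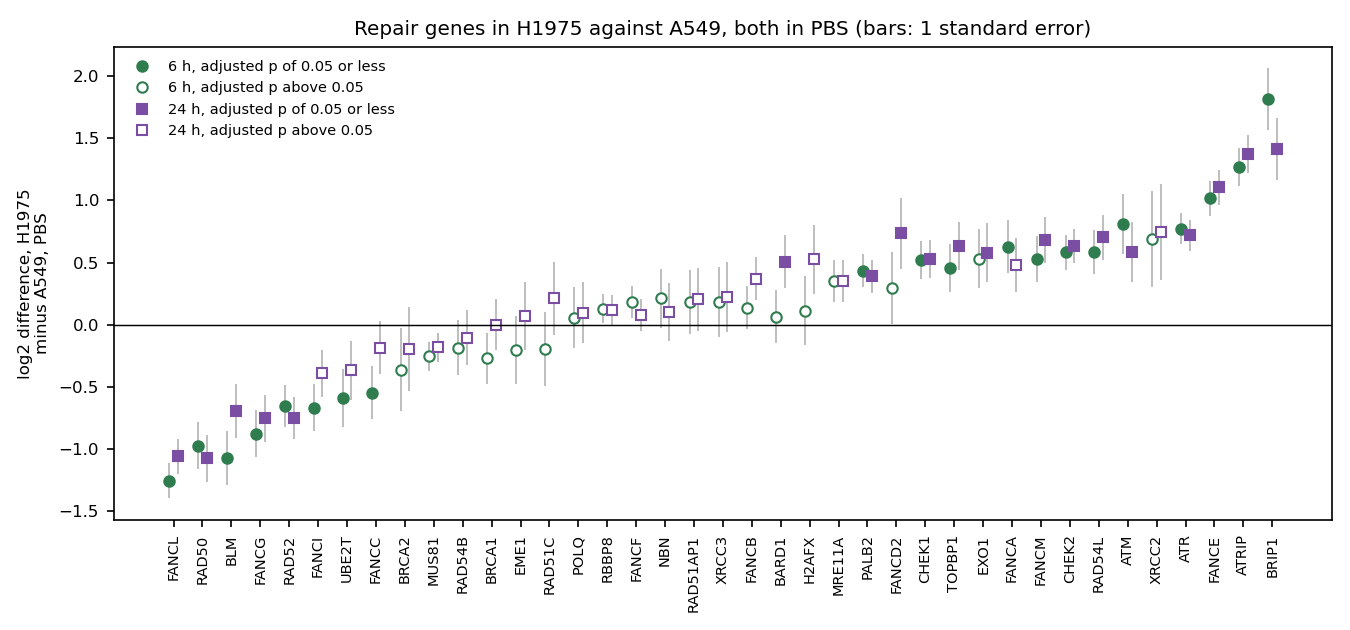
Log2 differences between H1975 and A549 in PBS for each of the 39 genes, at 6 h (green circles) and 24 h (purple squares), ordered by the mean of both. Bars are 1 standard error and filled symbols passed at an adjusted p of 0.05 or less: FANCL and RAD50 lie at the low end and ATRIP and BRIP1 at the high end at both times.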

How the data were processed

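Total RNA of 24 samples was labelled with Cy3, hybridised to one-colour Agilent arrays and read with Agilent Feature Extraction 11.5.1.1. The deposited scanner files hold intensity values, which per the file headers were background-subtracted within each array and not scaled between arrays. A deposited table of the authors' log2 values, whose centring was not stated, served as an alternative; after centring each probe it correlated with the values used here at 0.9996. Processed signals were log2 transformed, the 75th percentile of each array over 43118 spots was subtracted, spots marked as outliers were dropped, and replicate spots of a probe were averaged. A probe was tested if the 3 arrays of any group all measured it well above background, which left 23827 of 34127 probes. Samples were grouped by GEO's labels, and 1 fit of 8 groups without covariates (limma 3.58.1 in R 4.3.3, 16 residual degrees of freedom) gave Benjamini-Hochberg adjusted p-values over all probes tested. The study's methods name a moderated test with a fold-change limit of 2 and Westfall-Young permutation, for which Benjamini-Hochberg was used here. The analysis was tested on simulated data.

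The 39 genes and all gene lists were chosen with earlier results of these data known. Values on each array are given for the genes that passed in any Pirfenidone comparison (15), for BRCA1, BRCA2, FANCD2, CHEK1 and ATM in any case, and for the 4 genes with the largest line difference that passed at both times; those of XRCC2, RAD50 and of H2AFX at 6 h were added after their values were seen. Other repair genes were to be named where they passed with a fold change of at least 2 in a Pirfenidone comparison; ZSWIM7, FAM175A and XRCC5 were added after their values were seen, and 1 gene is not reported here. Accessions of 38 of the 39 probes matched current RefSeq transcripts. Positions are those of the array annotation (hg19). Alternatives covered background correction, normalization, filters, blocks, the arrays in the fit, the adjustment, probes per gene, a t-test paired by run (the study names a paired t-test for selected genes, and the run was chosen here as the pair) and each array left out.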

Additional observations from a re-analysis of the deposited data

How the results depend on the processing

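The numbers of repair genes called with a fold change of at least 2 were 5 in H1975 at 24 h, 5 at each time between the lines, and 0 in every other comparison. With that limit 1% of all probes fell in H1975 at 24 h in the main fit. This share was not counted under the alternatives. In H1975 at 24 h the count was 2 with normexp background correction, 2 with the slide as a block, 0 when only the arrays compared entered the fit, 0 with the Holm adjustment, 0 with a t-test paired by run after Benjamini-Hochberg (4 before it) and 15 without the fold-change limit. It ranged from 0 to 7 as single arrays were left out, with 0 without replicate 3 of Pirfenidone, 1 without replicate 1 of PBS and 2 without replicate 3 of PBS. Without the fold-change limit, 20 genes passed between the lines at 6 h and 19 at 24 h. Of all probes, 30.7% were then higher in H1975 and 27.9% lower at 6 h, and 32% and 27.2% at 24 h. With Holm, 3 passed at 24 h. These line counts ranged from 4 to 8 at 6 h (8 without replicate 1 of H1975 in PBS) and from 4 to 6 at 24 h as single arrays were left out. The line difference in response at 24 h was 4 with the run as a block and ranged from 0 to 2 as single arrays were left out (2 without replicate 2 of A549 in Pirfenidone). The other counts stayed within 1.5 times of the main count under every alternative, and none of the 15 genes that fell changed sign. The 15 were chosen by their fall on these arrays, so that sign is no separate support. Of the 15 genes that fell in H1975 at 24 h, 8 passed with normexp, 10 with the slide block, 1 (POLQ) with only the arrays compared, 0 with Holm and 7 with the unadjusted t-test, and 15 with quantile normalization, with the authors' table and with the run block. The cause was not tested.

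With the replicate number as a replicate block within the line, 6 genes were called in H1975 at 24 h, and 19 fell and 1 rose without the fold-change limit, where 5.02% of all probes fell. The numbers did not pair all samples: correlations of same-numbered deviations were 0.46 to 0.72 in H1975 at 24 h and -0.68 to 0.43 in H1975 at 6 h, where arrays of the same run correlated at 0.50 to 0.82. BRCA1 and BLM lay just past the fold-change limit (folds of 2.004 and 2.005), so their calls turn on small shifts.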
